A study of Mus musculus with 6 samples.

Results

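Processed pseudogenes are copies of messenger RNAs that were reverse-transcribed and put back into the genome, so that they lack the introns and usually the promoter of the gene they came from, here called the parent gene. Most copies stem from strongly expressed genes such as those of the ribosome, glycolysis and the cytoskeleton. Because a copy can be nearly identical to its parent, a short sequenced fragment can match both, and how such fragments are divided decides the level that is listed for each.

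The 261 pseudogenes described here are the rows annotated as processed pseudogenes whose mean over the 6 libraries was at least 5 FPKM (a fragment level corrected for gene length and depth) and whose names do not start with Rpl or Rps. They were 261 of 3431 processed pseudogenes and of 27458 genes in the table. They were chosen by their mean FPKM over all 6 libraries, so levels are given as a description without a test. The libraries came from primary bone marrow macrophages of mice, 3 from RKIP+/+ mice (wild type, WT) and 3 from RKIP-/- mice (KO), all treated with M-CSF, a growth factor that macrophages need. RKIP (Raf kinase inhibitor protein) binds Raf kinases and is encoded by Pebp1, and the study asked what it does in macrophage differentiation. Both genotypes had the same tissue, cell type and M-CSF label, and how RKIP was deleted, the strain, the age and the sex of the mice are not given in the sources used here, nor is it given whether libraries came from separate animals. P-values therefore measure the spread between libraries, which may be technical.

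Total estimated counts ran from 53188659 to 55255365 in WT and from 63607276 to 70059042 in KO. Pebp1 stood at 39.2, 33.2 and 39.0 FPKM in WT libraries 1 to 3 and at a count of 0 in all 3 KO libraries. The 7 macrophage markers summed to between 20401 and 21897 FPKM in WT and between 18417 and 18674 FPKM in KO, a sum that is mostly Lyz2 (19286 FPKM in WT and 16648 FPKM in KO). Of the other 6, Csf1r, Adgre1, Itgam and Mertk were higher in every KO library than in every WT library, and Cd68 and Fcgr1 were lower. B cell, erythroid and T and NK cell markers were at or near 0. The 9 neutrophil markers summed to between 73.8 and 159 FPKM in WT and between 7.41 and 8.00 FPKM in KO, and 3 stromal markers to between 783 and 877 FPKM in WT and between 815 and 919.5 FPKM in KO. The part of these cells in the changes below was not tested.

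Every one of the 261 pseudogenes matched a protein-coding transcript over at least 50% of its length, with a median identity of 99.5%. They fell on 180 parents: 144 parents had 1 copy among them and 36 had several, led by Gapdh with 15 copies, Hnrnpa3 with 9, and Eef1a1, Rpl21 and Rpl7a with 7 each. Identity to the parent was 100% for 48 pseudogenes, at least 99% for 173 and under 95% for 8. In 53 pseudogenes every stretch of 100 bases was also found, letter for letter, in a transcript of another gene, while 12 shared no such stretch. A second coding gene matched nearly as well as the first (at least 95% of the score) for 45. The copies lay on 21 chromosomes, 13 of them on the chromosome of the parent. Relative to protein-coding genes, 189 did not lie wholly within any, and a partial overlap was not counted. Another 34 lay in an intron on the same strand, 35 in an intron on the opposite strand and 3 across an exon on the opposite strand. How the authors' counting divided fragments between copies and whether it used the strand are not given in the sources used here, so the level of each single pseudogene is uncertain, and each is given below beside its parent and beside the sum of both.

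Levels were steep. The median of the 261 means was 11.7 FPKM, 116 lay between 5 and 10 FPKM and 18 reached 100 FPKM. The highest was Gm13394, a copy of Gapdh on chromosome 2 (chr2:28933610-28934609, minus strand), at 697.5 FPKM, against 5.66 FPKM for Gapdh itself. In all, 94 pseudogenes were listed above their parent. The next highest were Gm10123, a copy of the folding enzyme Ppia, at 379 FPKM, and Gm9794, a copy of Rpl23, at 259.6 FPKM. Gm8730 (Rplp0), Gm8210 and Gm13841 (both Rpl29), Gm8226 (Rpl7a), Gm12715 and Gm8399 (both Actg1) and Gm10736 (Rpl41) completed the 10 highest, between 134 and 246 FPKM. The parent Rpl29 was at 1.79 FPKM, so its copies took 99.04% of the counts of that family in WT and 98.8% in KO.

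As a group the pseudogenes were lower in KO. Summed, they took 7504, 7259 and 7534 counts per 1000000 counts of the library (CPM) in WT libraries 1, 2 and 3, against 6188, 6366 and 6044 in the 3 KO libraries. In bulk samples, fewer cells of a type and less RNA per cell cannot be told apart. The genotypes did not overlap, and the share was 0.743% of all counts in WT and 0.620% in KO. The difference of -1233 CPM had p = 0.10 in the exact two-sided permutation test, the smallest p that 3 libraries against 3 can give. Much of it lay in the 15 copies of Gapdh, which took 1944, 1987 and 1955 CPM in WT libraries 1 to 3. In KO libraries 1 to 3 these copies took 1280, 1309 and 1235 CPM. By edgeR's quasi-likelihood test, 9 of the 261 rose (3.45%) and 121 fell (46.4%) at a Benjamini-Hochberg adjusted p under 0.05, where 20.3% of all 11636 genes tested rose and 19.4% fell. The median log2 fold change (KO over WT) was -0.30, beside -0.01 for all genes tested and 0.00 for protein-coding genes. A fall of at least 2-fold passed the test in 29 pseudogenes and a rise of that size in 4. In 126 pseudogenes every KO library was below every WT library and in 16 it was above, while 19.3% and 32.2% of all genes tested had such groups. The 55 processed pseudogenes of at least 5 FPKM that carry Rpl or Rps names had a median of -0.44, and the 358 others of 1 to 5 FPKM had a median of -0.56. With the offset for length and GC content described next, these medians were 0.04 and -0.18.

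The count of falls was smaller when transcript length and base composition were allowed for. The pseudogenes had a median length of 614 bases, and all genes tested one of 3151 bases. When each library's trend on length and GC content was entered as an offset in edgeR, 47 pseudogenes were higher and 66 lower, beside 16.6% and 14.8% of all genes tested, and the median became 0.05. The 66 lower ones were all among the 121, and the 9 that rose without the offset also rose with it. Another 4 (Gm8210, Gm13841, Atp6v0c-ps2 and Gm10132, named for this change of call) went from lower to higher.

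The parents had a smaller median change without the offset. Of the 179 parents tested, 17 rose (9.50%) and 87 fell (48.6%), beside 20.3% and 19.4% of all genes tested. Their median was -0.15 on the log2 scale. Fitted with the offset, 32 parents were higher and 51 lower, beside 16.6% and 14.8% of all genes tested. The median of the parents was then -0.05, beside 0.05 for the pseudogenes. Among pseudogenes that fell, the parent also fell for 83, was not past the threshold for 36 and rose for 2. Among those that rose, the parent fell for 4, rose for 3 and was not past the threshold for 2. To ask whether a copy and its parent changed by different amounts, the difference of their log2 CPM was tested with limma over 709 pairs of processed pseudogene and parent. This ratio rose for 10 of the 261 and fell for 37, against 2.68% and 21.7% of all pairs, with a median of -0.12 on the log2 scale. Without WT library 1 the ratio fell for 22 pseudogenes and without WT library 2 for 24. One of the 10 was Gm9824, a copy of Pebp1, whose count was 0 in KO like that of its parent, so that its ratio has no meaning. When the counts of each parent and all its matched processed pseudogenes were summed before edgeR, 19 of the 180 families rose and 105 fell, against 20.8% and 19.1% of all 10937 rows tested. The median log2 fold change of the 180 families was -0.18. Without KO library 1 or without KO library 3, 12 families rose. With the length and GC offset, 20 of the 180 families were higher and 77 lower.

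**Figure D1:**
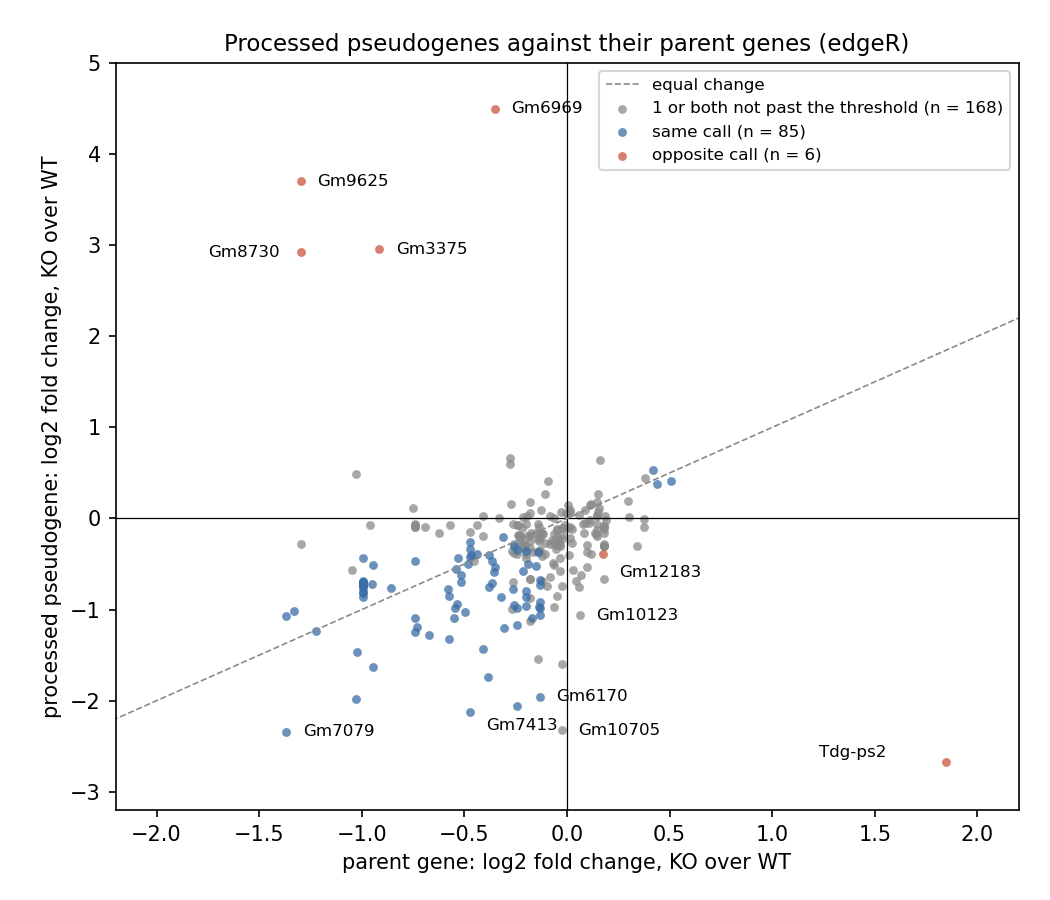
Each point is 1 processed pseudogene, with the log2 fold change (KO over WT, edgeR) of its parent gene on the x axis and its own on the y axis. Blue points passed the threshold in the same direction as the parent, red points in the opposite direction, grey points did not pass for 1 or both, and the dashed line marks equal change. Gm9824 and 1 pseudogene whose parent was not tested are left out. The points of Gm8730, Gm9625, Gm6969 and Gm3375 lie far above the line and that of Tdg-ps2 far below it.

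The largest rises were copies of genes that fell. Gm8730 and Gm9625 are copies of Rplp0, a protein of the stalk of the large ribosomal subunit, Gm6969 of Cox7a2l, which takes part in assembling respiratory supercomplexes, and Gm3375 of Psmb5, a catalytic subunit of the proteasome. They were the 4 rises of at least 2-fold, and in each the parent fell. Gm6969 and Gm3375 were under 5 FPKM in every WT library and met the limit of 5 FPKM only through KO. The stretches below show, for Rplp0 and its 2 copies, where the letters that tell them apart lie. Capitals mark positions at which the 3 sequences are not all the same, read 5′ to 3′ along the transcript from GENCODE M21 (GRCm38). The Rplp0 stretch spans exons 4 and 5 (chr5:115561167-115561373, plus strand), that of Gm8730 is chr8:102865293-102865412 (minus strand) and that of Gm9625 is chr13:67810632-67810751 (plus strand).
Rplp0: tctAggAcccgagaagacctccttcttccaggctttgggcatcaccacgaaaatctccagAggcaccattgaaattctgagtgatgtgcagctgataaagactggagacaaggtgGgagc
Gm8730: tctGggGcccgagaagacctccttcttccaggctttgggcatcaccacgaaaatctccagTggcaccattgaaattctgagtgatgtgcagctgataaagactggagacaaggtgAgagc
Gm9625: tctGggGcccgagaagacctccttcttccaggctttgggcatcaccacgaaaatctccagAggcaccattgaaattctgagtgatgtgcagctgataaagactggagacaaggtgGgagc

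In these 120 bases Gm8730 differs from Rplp0 at 4 positions and Gm9625 at 2, and over the aligned transcript Gm8730 differs at 12 and Gm9625 at 24 of 954 positions. Of the stretches of 100 bases of Gm8730, 36.1% also occur in a transcript of another gene, and of those of Gm9625 21.03%.

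Gm8730 (ENSMUSG00000063696) was at 58.7, 54.2 and 53.1 FPKM in WT libraries 1 to 3 and at 439.7, 433 and 436 FPKM in KO libraries 1 to 3. Gm9625 (ENSMUSG00000097906) was at 5.59, 5.10 and 4.67 FPKM in WT and at 66.6, 67.8 and 73.7 FPKM in KO. In both, the KO libraries lay close together and far above all WT libraries. The log2 fold change of Gm8730 was 2.93 ± 0.05 (approximate SE, n = 3 per genotype, edgeR, adjusted p = 1.28e-11) and that of Gm9625 3.70 ± 0.08 (adjusted p = 4.37e-11). Rplp0 itself (ENSMUSG00000067274) was at 693, 648 and 643 FPKM in WT and at 289, 281 and 268 FPKM in KO, a log2 fold change of -1.30 ± 0.05 (edgeR, adjusted p = 1.28e-08). Its start lies 1.72 Mb from that of Pebp1 on chromosome 5, while its 3 copies among the 261 lie on chromosomes 8, 13 and 16. Of the 180 parents, 4 start within 10 Mb of Pebp1, Pebp1 itself among them. Another is Rpl6, 3.92 Mb away, with a log2 fold change of -0.14 (edgeR, adjusted p = 0.0295). The part of position in these changes was not tested. The processed pseudogenes held 6.09 ± 0.15% (SD, n = 3) of the counts of the Rplp0 family in WT and 52.0 ± 0.96% in KO. The family as a whole fell from 1314 ± 54.5 to 1025 ± 26.3 CPM (log2 fold change -0.34, edgeR, adjusted p = 6.24e-05). Gm6278, a copy with 92.8% identity to Rplp0, was at 17.1 ± 1.66 FPKM in WT and 14.6 ± 1.89 FPKM in KO (edgeR, adjusted p = 0.0710), with overlapping genotypes, while its ratio to Rplp0 rose by 1.01 ± 0.13 on the log2 scale (limma, adjusted p = 0.00551). Gm14165, a copy below the 5 FPKM limit, was at 0.285 FPKM in WT and 7.55 FPKM in KO (edgeR, log2 fold change 4.63).

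Gm6969 and Cox7a2l differ by a gap. The stretch of Gm6969 (chr12:24638690-24638809, minus strand) holds 6 bases that the reference transcript of Cox7a2l lacks and 1 substitution. The stretch of Cox7a2l is in exon 3 (chr17:83502624-83502737, minus strand). Capitals mark bases that are missing from or different in the other sequence.
Cox7a2l: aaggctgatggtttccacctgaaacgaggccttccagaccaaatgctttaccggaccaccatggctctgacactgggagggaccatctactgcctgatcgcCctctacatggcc
Gm6969: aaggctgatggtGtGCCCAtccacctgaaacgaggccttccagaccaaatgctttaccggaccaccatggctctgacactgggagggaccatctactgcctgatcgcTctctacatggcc

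Gm6969 (ENSMUSG00000066553, 342 bases) was at 2.16, 2.24 and 1.31 FPKM in WT libraries 1 to 3 and at 45.9, 46.2 and 43.1 FPKM in KO libraries 1 to 3. No KO library came near a WT library. This was the largest rise of the 261, with a log2 fold change of 4.50 ± 0.17 (edgeR, adjusted p = 2.08e-08). Cox7a2l, on another chromosome, was at 88.5, 82.8 and 81.5 FPKM in WT and at 69.6, 64.7 and 71.5 FPKM in KO (log2 fold change -0.35, edgeR, adjusted p = 0.000280). The copy held 0.522% of the family counts in WT and 13.2% in KO. The family sum was 141 ± 6.17 CPM in WT and 124 ± 5.19 in KO (log2 fold change -0.16, edgeR, adjusted p = 0.0147). That call was lost without WT library 1 and with no filter on low values, and with the length and GC offset the value was 0.07.

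Gm3375 and Psmb5 differ at 3 of the 120 bases shown, which are marked in capitals. The Psmb5 stretch lies in exon 2 (chr14:54616631-54616750, minus strand) and that of Gm3375 is chr7:3181363-3181482 (plus strand).
Psmb5: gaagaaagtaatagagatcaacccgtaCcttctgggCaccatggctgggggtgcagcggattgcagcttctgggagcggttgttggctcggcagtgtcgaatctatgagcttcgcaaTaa
Gm3375: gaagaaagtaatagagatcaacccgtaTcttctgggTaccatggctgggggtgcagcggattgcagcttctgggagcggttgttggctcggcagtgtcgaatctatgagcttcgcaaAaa

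Gm3375 (ENSMUSG00000107470) was at 1.496, 1.654 and 1.626 FPKM in WT libraries 1 to 3 and at 13.1, 11.4 and 14.0 FPKM in KO libraries 1 to 3. All KO libraries were well above all WT libraries, and the log2 fold change was 2.95 ± 0.15 (edgeR, adjusted p = 1.29e-07). Psmb5 fell from 56.6 ± 2.17 to 31.2 ± 0.81 FPKM (edgeR log2 fold change -0.91 ± 0.06 at an adjusted p of 7.25e-07). The copy held 2.44 ± 0.09% of the family counts in WT and 26.7 ± 1.54% in KO. Their sum fell from 58.6 ± 2.23 to 40.6 ± 1.87 CPM (log2 fold change -0.51, edgeR, adjusted p = 1.30e-05), less than Psmb5 alone.

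Tdg-ps2 went the other way. It is a copy of Tdg, a DNA glycosylase that removes thymine and modified cytosines, and both lie on chromosome 10. They differ at 9 of 1194 aligned positions, and 5 of these fall in the stretch shown in capitals, which spans exons 9 and 10 of Tdg (chr10:82648015-82648633, plus strand) and chr10:42054200-42054319 (minus strand) in the copy.
Tdg: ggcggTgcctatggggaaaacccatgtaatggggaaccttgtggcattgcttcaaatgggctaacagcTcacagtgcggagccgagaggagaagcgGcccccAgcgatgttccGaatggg
Tdg-ps2: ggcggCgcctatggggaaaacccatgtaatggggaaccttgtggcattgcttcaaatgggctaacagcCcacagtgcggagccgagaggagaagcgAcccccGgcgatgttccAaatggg

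Tdg-ps2 (ENSMUSG00000085666) was at 11.1, 11.4 and 11.6 FPKM in WT libraries 1 to 3 and at 1.89, 1.94 and 1.72 FPKM in KO libraries 1 to 3. Tdg was at 1.39, 1.33 and 1.53 FPKM in WT and at 5.32, 5.20 and 5.47 FPKM in KO. The pair thus changed places, with no overlap between genotypes in either gene. Tdg-ps2 met the limit of 5 FPKM only through WT. The log2 fold change was -2.67 ± 0.12 for the copy and 1.85 ± 0.08 for Tdg (edgeR, adjusted p = 4.73e-08 for each). The copy held 63.9 ± 1.5% of the counts of the pair in WT and 7.17 ± 0.58% in KO, and the pair together rose from 23.9 ± 0.90 to 32.8 ± 0.61 CPM (log2 fold change 0.48, edgeR, adjusted p = 9.21e-05). The only other fall beside a parent that rose was that of Gm12183, a copy of the RNA helicase Ddx5, from 7.99 ± 0.35 to 6.32 ± 0.62 FPKM (edgeR log2 fold change -0.39 at an adjusted p of 0.00526), while Ddx5 rose by 0.17 on the log2 scale.

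**Figure D2:**
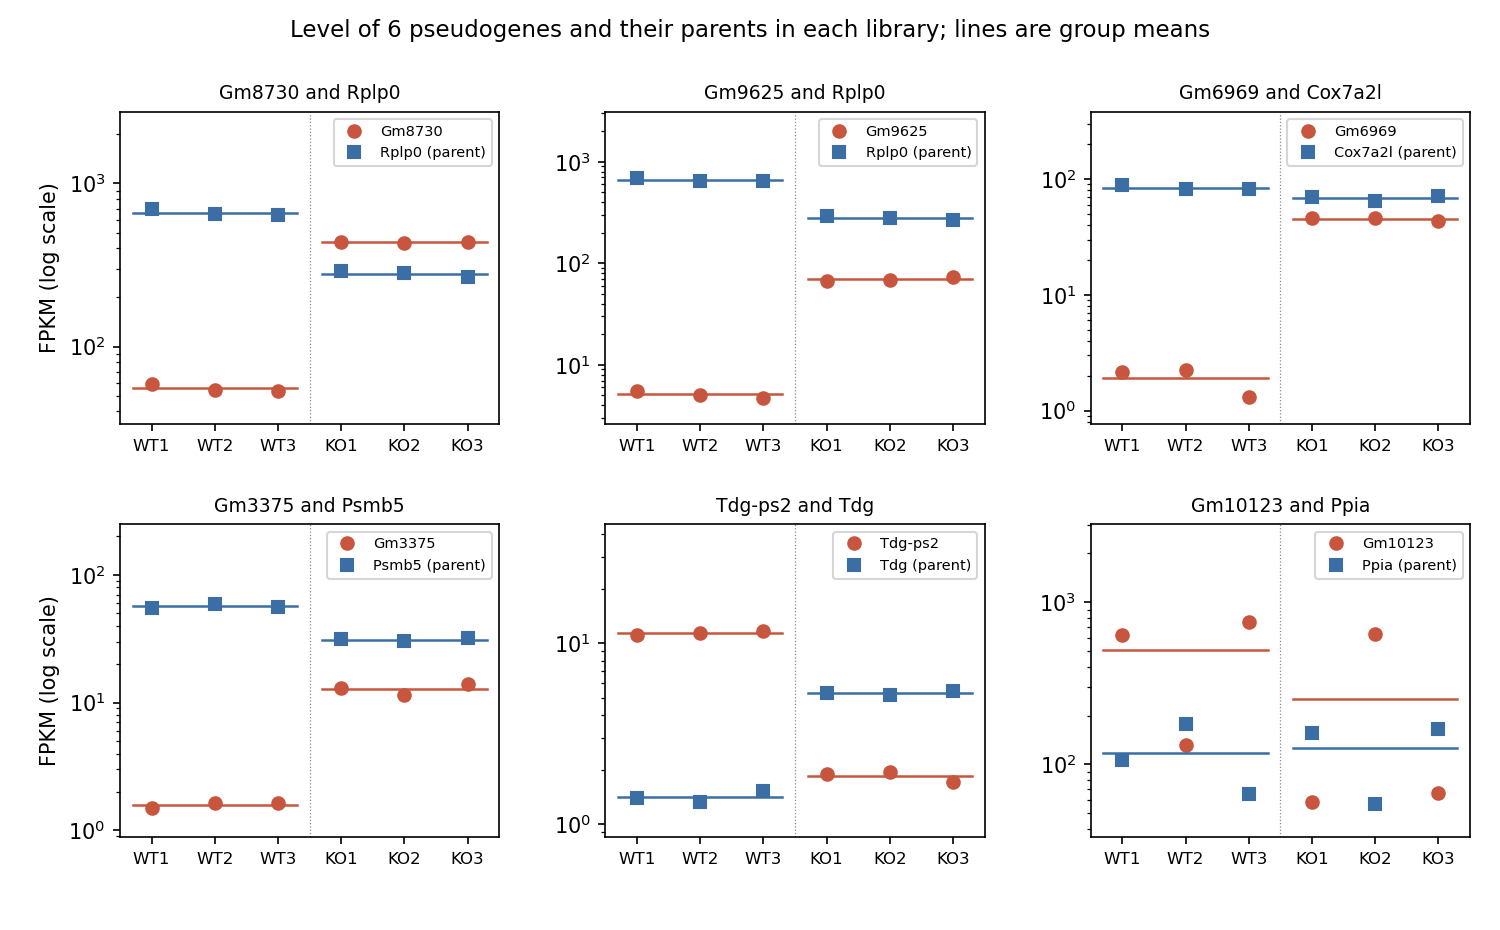
FPKM on a log axis of 6 pseudogenes (circles) and their parents (squares) in WT libraries 1 to 3 and KO libraries 1 to 3, with lines at the group means. Gm8730, Gm9625, Gm6969 and Gm3375 are higher and their parents lower in every KO library, Tdg-ps2 and Tdg change places, and Gm10123 and Ppia move in opposite directions between libraries of the same genotype.

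The copies of the deleted gene had no counts in KO, like the gene itself. Gm9824 (ENSMUSG00000095478, chr10:29030128-29030688, plus strand) differs from Pebp1 at 6 of 561 aligned positions, and 3 of these lie in the stretch below, taken from exon 4 of Pebp1 (chr5:117283274-117283393, minus strand) and from chr10:29030546-29030665.
Pebp1: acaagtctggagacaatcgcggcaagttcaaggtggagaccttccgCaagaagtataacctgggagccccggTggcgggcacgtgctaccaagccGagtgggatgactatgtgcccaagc
Gm9824: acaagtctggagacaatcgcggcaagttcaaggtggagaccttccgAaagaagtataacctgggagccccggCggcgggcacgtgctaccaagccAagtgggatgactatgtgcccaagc

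Gm9824 was at 13.8, 27.4 and 14.7 FPKM in WT libraries 1 to 3, and its count was 0 in all 3 KO libraries. It thus met the limit of 5 FPKM only through WT. WT library 2 was the highest, and Pebp1 was lowest in that library. A floor of 3 fragments per library was taken as 12 estimated counts, by an inferred ratio of 4 counts per fragment. Against it, the copy was at least 65.7-fold lower in KO (edgeR, adjusted p = 1.04e-06) and Pebp1 at least 413-fold lower. A second copy, Gm10819, with 9.01 FPKM in WT and a count of 0 in KO, was at least 31.8-fold lower and had a mean below the 5 FPKM limit. The sum of the 3 genes was 91.9, 89.9 and 92.5 CPM in WT, of which the copies held 15.1%, 26.5% and 15.9%. Gm9824 lies on chromosome 10 and Pebp1 on chromosome 5, and 26.8% of the stretches of 100 bases of Gm9824 occur in another gene's transcript.

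The other 5 rises went with a family sum that rose, though with the length and GC offset the sum of Cop1, the parent of Gm6206, turned from 0.23 to -0.12. Ncoa4-ps, a copy of the ferritin receptor gene Ncoa4, was at 25.9, 26.2 and 26.7 FPKM in WT libraries 1 to 3 and at 35.2, 36.4 and 36.9 FPKM in KO libraries 1 to 3, without overlap (log2 fold change 0.41 ± 0.04, edgeR, adjusted p = 3.08e-05). Ncoa4 rose by 0.50 ± 0.04 on the log2 scale, and the ratio of copy to parent differed by -0.10 ± 0.09 (limma, adjusted p = 0.475). Ctdsp2-ps, a copy of a phosphatase gene, rose from 8.45 ± 0.38 to 11.4 ± 0.47 FPKM (edgeR, adjusted p = 0.0149) beside a rise of Ctdsp2 by 0.44 on the log2 scale. Rbpj-ps3, a copy of the gene for the DNA-binding partner of Notch, rose from 83.2 ± 1.35 to 95.5 ± 3.10 FPKM (edgeR log2 fold change 0.14 at an adjusted p of 0.0139), and Rbpj was at 15.0 ± 0.78 FPKM in WT and 16.7 ± 0.11 FPKM in KO (adjusted p = 0.0852).

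Gm20689 is identical over its 279 bases to Rab8b, a gene of vesicle transport. It was at 10.02, 9.40 and 8.57 FPKM in WT and at 15.5, 11.4 and 15.1 FPKM in KO (log2 fold change 0.53, edgeR, adjusted p = 0.0315). The call was lost without WT library 2 or 3 or KO library 1 or 3, and with no filter on low values. Gm6206, a copy of the ubiquitin ligase gene Cop1, was at 4.68, 4.63 and 4.82 FPKM in WT and at 10.9, 5.35 and 6.66 FPKM in KO (log2 fold change 0.65, edgeR, adjusted p = 0.0263). KO library 1 was the highest, and without it the value was 0.29. The call of Gm6206 was lost without any 1 WT library, without KO library 1, with no filter on low values, in DESeq2 and in limma. Gm6206 was under 5 FPKM in every WT library and met the limit of 5 FPKM only through KO.

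The copies of glycolytic genes fell together. All 18 pseudogenes with a glycolytic parent passed the threshold as lower (median log2 fold change -0.73), beside 19.4% of all genes tested. All 18 were also lower with the length and GC offset, with a median of -0.41, beside 14.8% of all genes tested. The 15 copies of Gapdh, the enzyme that oxidises glyceraldehyde 3-phosphate, share 99.5 to 100% of their aligned bases with it and are not independent of each other. Their log2 fold changes ran from -0.86 to -0.43. Gm13394 was at 775, 812 and 780.3 FPKM in WT libraries 1 to 3 and at 599, 630.3 and 589 FPKM in KO libraries 1 to 3, a fall of 1.35-fold without overlap (edgeR, adjusted p = 1.40e-05). Gm5559 fell from 150.2 ± 2.23 to 95.8 ± 1.9 FPKM and Gm14760 from 88.2 ± 1.06 to 52.4 ± 0.91 FPKM. Gapdh itself was listed at 7.44 ± 0.37 FPKM in WT and 3.87 ± 0.27 FPKM in KO (log2 fold change -0.99, edgeR, adjusted p = 3.57e-06). Gm13394 fell less than Gapdh, with a ratio that rose by 0.56 ± 0.10 on the log2 scale (limma, adjusted p = 0.0132). That call was lost without WT library 1.

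The processed pseudogenes held 98.3 ± 0.09% of the counts of the Gapdh family in WT and 98.7 ± 0.06% in KO. The family sum fell from 2025 ± 23.1 to 1305 ± 38.7 CPM (log2 fold change -0.61 ± 0.04, edgeR, adjusted p = 3.73e-07). Of the other glycolytic copies, Pgk1-rs7 fell from 7.27 ± 0.25 to 3.69 ± 0.09 FPKM, Pgam1-ps2 from 28.9 ± 1.59 to 18.3 ± 1.01 FPKM and Gm6560, a copy of Pkm, from 7.63 ± 0.43 to 4.01 ± 0.50 FPKM. Their families fell by 0.52, 0.39 and 0.56 on the log2 scale, in each case past the threshold, and with the Gapdh family all 4 glycolytic families fell. Pgk1-rs7 and Gm6560 met the limit of 5 FPKM only through WT. Gapdh-ps16, whose best match was the coding gene Gm10358 and not Gapdh, also fell, from 9.81 to 5.98 FPKM (edgeR, adjusted p = 8.80e-05).

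**Figure D3:**
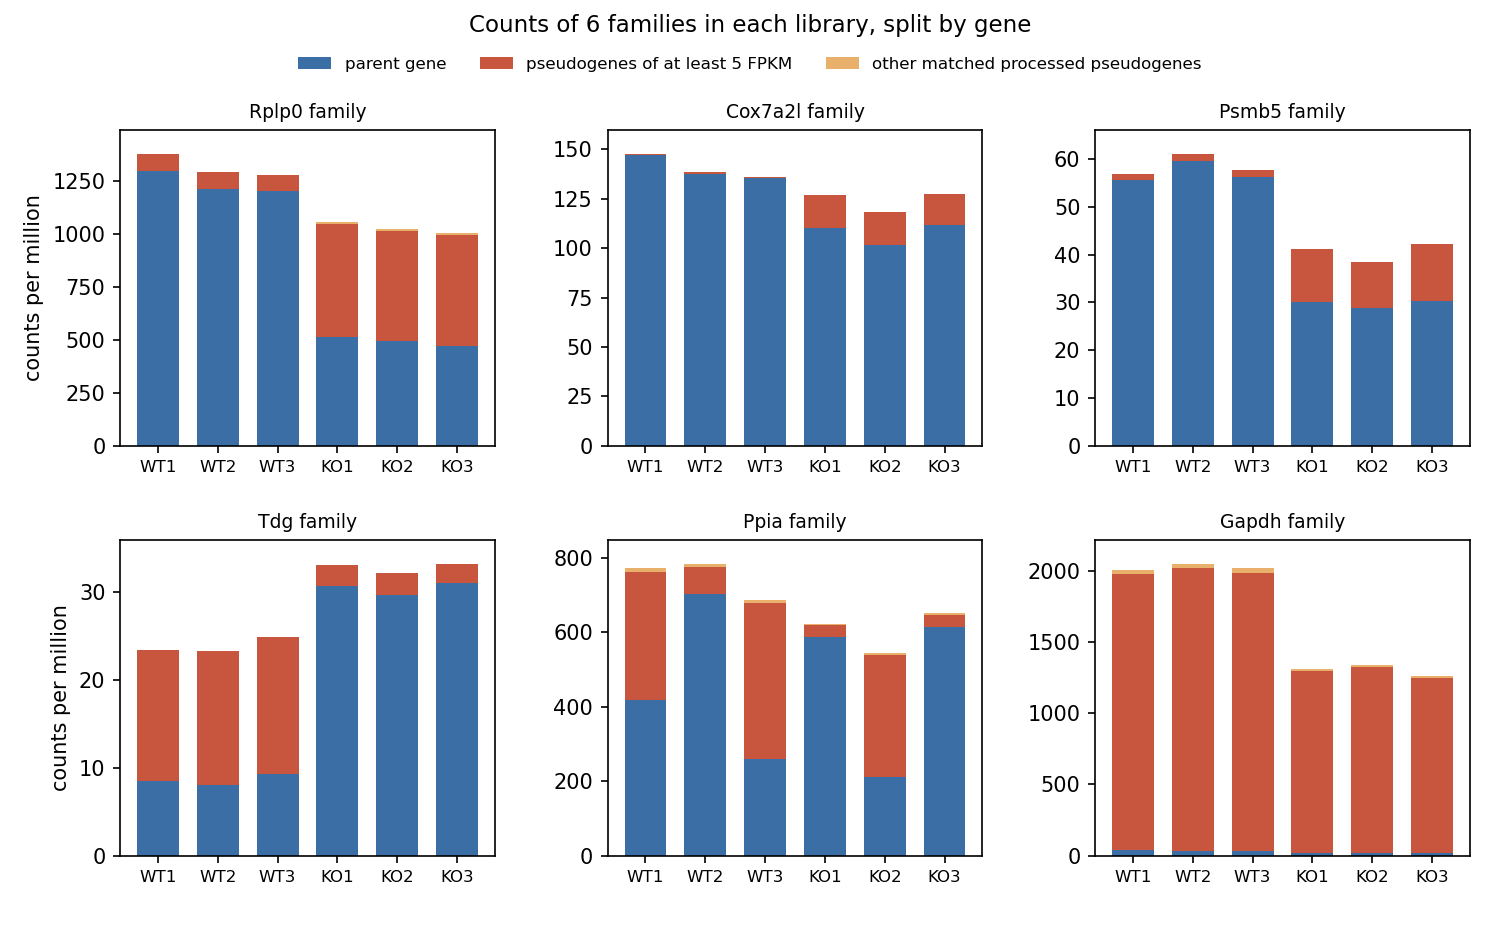
Estimated counts (CPM) in each library of 6 families, stacked by parent gene (blue), pseudogenes with a mean of at least 5 FPKM (red) and other matched processed pseudogenes (light orange). The red part grows in KO for Rplp0, Cox7a2l and Psmb5, shrinks for Tdg, alternates between libraries for Ppia and makes up nearly the whole Gapdh family.

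Copies of ribosomal protein genes under other names were the largest named group. Of all genes tested, 19.4% fell and 20.3% rose, and with the offset for length and GC content 14.8% were lower and 16.6% higher. Of the 65 ribosomal copies, 37 fell and 2 (Gm8730 and Gm9625) rose (median log2 fold change -0.46). With that offset 17 of these copies were lower and 14 higher. Of their 36 families 34 fell and none rose, where 19.1% of all rows fell, while 37 families of the largest remaining group (95 parents with no listed role) fell and 17 rose. These family counts are without the offset. With it the log2 fold changes of the Rpl7a and Rpl23 sums were 0.01 and -0.07, and of all 180 families 77 were lower and 20 higher. Among the falls, Gm7079, a copy of Rps29, a protein of the small subunit, was at 36.4, 28.4 and 29.1 FPKM in WT and at 7.40, 6.70 and 5.04 FPKM in KO (log2 fold change -2.34 ± 0.20, edgeR, adjusted p = 7.62e-06). The genotypes were far apart, and the gene shares no stretch of 100 bases with another. Rps29 itself fell by 1.37 on the log2 scale, and the ratio of copy to parent fell by 0.94 (limma, adjusted p = 0.00747).

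Gm7413 (Rpl23a, 96.2% identity) fell from 16.1 ± 0.80 to 3.82 ± 0.58 FPKM, Gm15516 (Rpl9) from 12.3 ± 1.9 to 3.02 ± 1.03 FPKM, Gm10180 (Rpl41) from 8.26 ± 1.34 to 2.04 ± 0.53 FPKM and Gm10362 (Rpl17) from 9.87 ± 0.37 to 3.05 ± 0.16 FPKM. All 4 were lower in every KO than in every WT library and past the threshold also with the offset. Their KO means were under 5 FPKM, so they met the limit of 5 FPKM only through WT. The ratio to the parent fell past the threshold for Gm7413 (-1.64), Gm15516 (-1.81) and Gm10362 (-1.35), whose parents changed by -0.47, -0.24 and -0.38. For Gm10180 it was -0.75 ± 0.35 (limma, adjusted p = 0.191), and without KO library 2 it was -1.14 and past the threshold. Both Gm10180 and Gm10736 are copies of 78 bases, identical to Rpl41. Gm10736 was at 178, 71.9 and 84.2 FPKM in WT and at 102, 256 and 130.3 FPKM in KO, with overlap (edgeR, adjusted p = 0.294), and without WT library 1, its highest in WT, the log2 fold change went from 0.49 to 1.001 and past the threshold.

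Besides Gm8730, which rose, and Gm10736, 4 ribosomal copies were among the 10 highest means. Gm9794 (Rpl23) was at 304, 254 and 289 FPKM in WT and at 247, 219 and 245 FPKM in KO (log2 fold change -0.30, edgeR, adjusted p = 0.00472). Gm8210 fell from 208 ± 3.44 to 174 ± 3.37 FPKM and Gm13841 from 197 ± 4.58 to 166 ± 1.89 FPKM, 2 copies that match Rpl29 and the coding gene Gm3550 alike. Gm13841 lies 1.48 Mb from Pebp1. With the length and GC offset these 3 values turned to 0.15, 0.16 and 0.17. Gm8226, a copy of Rpl7a, was at 156, 169 and 154 FPKM in WT and at 158, 103 and 173 FPKM in KO, and was not past the threshold. Among the 7 copies of Rpl21, 3 fell, and their log2 fold changes ran from -1.25 to -0.06.

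**Figure D4:**
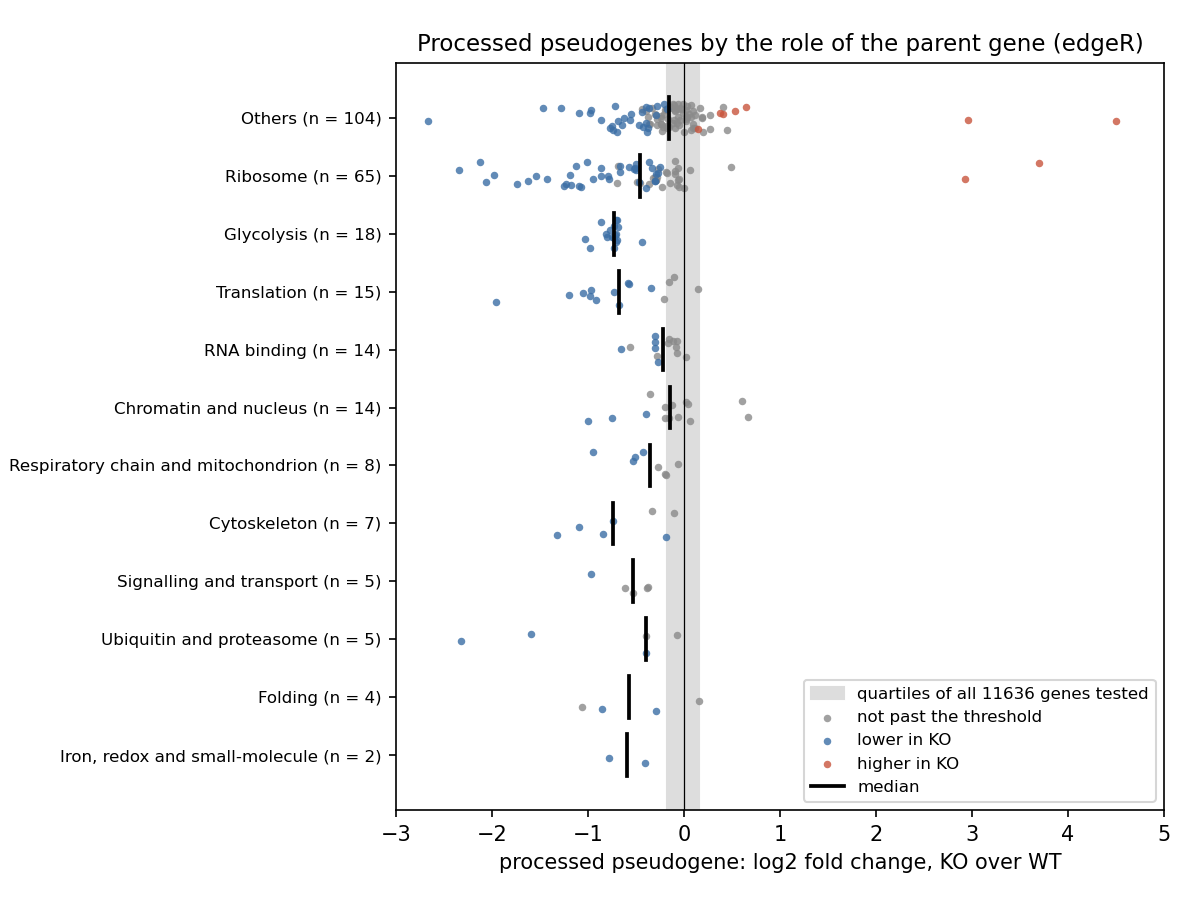
Log2 fold changes (KO over WT, edgeR) of the pseudogenes, 1 point each, by the role of the parent gene, with group sizes beside the names and bars at the medians. Blue points fell, red points rose, and grey points did not pass the threshold. The grey band runs from the lower to the upper quartile of all genes tested. Gm9824, at 0 in KO, is left out. All 18 glycolytic copies lie left of the band.

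Copies of genes in the translation list, which holds no parent named Rpl or Rps, fell in 11 of 15 cases (median log2 fold change -0.68). Of all genes tested 19.4% fell. With the offset 7 copies were lower and 1 higher, beside 14.8% and 16.6% of all genes tested. Of 7 copies of the elongation factor gene Eef1a1, 6 fell, although Eef1a1 itself fell by only 0.13 ± 0.03 on the log2 scale, from 2956 ± 82.8 to 2800 ± 14.8 FPKM. These copies are less alike, with 93.9 to 97.3% identity, and all matched processed pseudogenes of Eef1a1 together held 1.83% of the family counts in WT and 1.11% in KO. Gm6170 was at 9.10, 8.72 and 8.06 FPKM in WT and at 2.46, 2.52 and 1.92 FPKM in KO, with no overlap (log2 fold change -1.95 ± 0.13, edgeR, adjusted p = 1.67e-06), and 12.4% of its stretches of 100 bases occur in another gene's transcript. It met the limit of 5 FPKM only through WT, and its ratio to Eef1a1 fell by 1.82 ± 0.14 (limma, adjusted p = 0.00107). Gm13456 fell from 38.0 ± 2.45 to 20.0 ± 0.97 FPKM, and its ratio by 0.85 ± 0.10 (limma, adjusted p = 0.00385). Tpt1-ps3, a copy of the gene of a translationally controlled protein, fell from 57.8 ± 6.72 to 39.9 ± 1.98 FPKM.

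Copies of cytoskeletal genes fell in 5 of 7 cases, beside 19.4% of all genes tested. With the offset 4 were lower and 1 higher, beside 14.8% and 16.6% of all genes tested. Of the 2 abundant copies of the actin gene Actg1, Gm12715 was at 143, 164 and 147 FPKM in WT and at 136, 146 and 133 FPKM in KO, with overlap (log2 fold change -0.18, edgeR, adjusted p = 0.0206), and Gm8399 was at 136 ± 5.27 FPKM in WT and 131 ± 6.17 FPKM in KO (adjusted p = 0.120). The call of Gm12715 was lost in limma, with no filter on low values, without WT library 2 and without KO library 1 or 3, and with the offset both values turned above 0 (0.09 and 0.18). Actg-ps1 fell from 6.48 ± 0.50 to 4.02 ± 0.38 FPKM. The tubulin copy Gm3226 (Tuba1b) fell from 7.66 ± 0.51 to 3.17 ± 0.14 FPKM and Gm6180, a copy of the actin-severing gene Cfl1, from 7.73 ± 1.01 to 3.74 ± 0.35 FPKM. Actg-ps1, Gm3226 and Gm6180 met the limit of 5 FPKM only through WT.

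Copies of chromatin and RNA-binding genes had median log2 fold changes of -0.14 and -0.22. Of 14 copies with a chromatin parent 3 fell (21.4%), a share near the 19.4% of all genes tested, among them Gm9800, a copy of the prothymosin gene Ptma, from 115 ± 8.70 to 90.8 ± 7.94 FPKM. None of the 5 copies of Hmgb1, a DNA-bending protein, passed the threshold, and their log2 fold changes ran from -0.20 to 0.04. Of 14 copies with an RNA-binding parent 5 fell (35.7%, beside 19.4% of all genes tested). Among them were 4 of the 9 copies of the splicing regulator Hnrnpa3, whose values ran from -0.66 to -0.08. The most abundant of these, Gm11847, stood at 61.0 ± 1.14 FPKM in WT and 60.0 ± 2.39 FPKM in KO. With the offset, 4 chromatin copies were higher and none lower, and 2 RNA-binding copies were higher and 1 lower. Of all genes tested, 16.6% were then higher and 14.8% lower.

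The smaller role lists name only some genes of each role, and parents outside them, such as Cox7a2l, Ndufa12, Ndufs5 and Psmb5, were counted among those with no listed role. Of all genes tested, 19.4% fell and 20.3% rose, and with the offset 14.8% were lower and 16.6% higher. Of the 8 copies whose parents stand in the respiratory chain and mitochondrion list 4 fell, and with the offset 1 was lower. The largest of these falls was that of Gm10221, a copy of the ATP synthase gene Atp5l, from 25.6 ± 0.93 to 13.8 ± 2.19 FPKM. Gm12338, a copy of the cytochrome oxidase gene Cox7c that is identical to it, was at 10.96 ± 0.22 and 10.9 ± 0.48 FPKM while Cox7c fell by 0.57 on the log2 scale, and its ratio rose by 0.50 ± 0.10 (limma, adjusted p = 0.0161). Both copies in the iron and redox list fell, and with the offset none was lower. In the ubiquitin and proteasome list, which does not hold Psmb5, 3 of 5 fell, and 2 were lower and 1 higher with the offset. In the folding list 2 of 4 fell, and with the offset 2 were lower and 1 higher. In the signalling list 1 of 5 fell, with and without the offset, a share near the 19.4% of all genes tested that fell. All 5 log2 fold changes in it were below 0, with a median of -0.54, and of -0.18 with the offset. Gm15459, a copy of the chaperone gene Hspa8, fell from 64.6 ± 0.64 to 54.9 ± 1.27 FPKM.

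Of the 104 copies whose parents had no listed role, 30 fell (28.8%) and 7 rose (6.73%), with a median of -0.16. The shares of all genes tested were 19.4% and 20.3%. With the offset 13 copies were lower and 23 higher, beside 14.8% and 16.6% of all genes tested. Among the 50 pseudogenes with a name other than Gm and a number, 23 fell and 3 rose. The share that fell was near the 46.4% of all 261 pseudogenes. Ftl2-ps, named for ferritin light chain, fell from 48.3 to 32.5 FPKM (edgeR, adjusted p = 7.74e-05). Ndufa12-ps and Ndufs5-ps, copies of genes of respiratory complex I, fell from 28.6 to 13.9 FPKM and from 43.6 to 27.4 FPKM, and Oaz1-ps, a copy of an inhibitor gene of polyamine synthesis, from 12.4 to 6.50 FPKM. Vcp-rs, a copy of an unfolding enzyme gene, was at 119.9 FPKM in WT and 126 FPKM in KO (adjusted p = 0.723), and Eif4a-ps4, a copy of an RNA helicase gene of translation initiation, at 85.0 and 82.4 FPKM (adjusted p = 0.333).

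Some copies moved between libraries of 1 genotype. In 11 pseudogenes (4.21%) the highest and the lowest library of a genotype differed by 3-fold or more, against 10 of 6278 protein-coding genes of at least 5 FPKM (0.159%). Only 2 of the 11, Gm10705 and Gm6402, passed the threshold between genotypes. The sums of their 10 families differed by at most 1.23-fold within a genotype. The families of all 11 were lower in KO, beside 105 of the 180 families and 19.1% of all rows tested. With the length and GC offset the log2 fold change of the Rpl7a sum, the family of Gm5854, was 0.01. The clearest case was Gm10123, whose 490 bases are identical to Ppia, which encodes cyclophilin A. The first stretch of the Ppia coding sequence, which spans exons 1 to 3 (between chr11:6415911 and 6418245, plus strand), is also the sequence of Gm10123 at chr9:96895658-96895777 (plus strand), with no base in capitals because none differs.
Ppia and Gm10123: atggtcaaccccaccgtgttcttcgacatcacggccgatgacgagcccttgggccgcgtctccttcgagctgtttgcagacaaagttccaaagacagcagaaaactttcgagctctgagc

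Gm10123 was at 625, 131 and 759 FPKM in WT libraries 1 to 3 and at 58.8, 633 and 66.7 FPKM in KO libraries 1 to 3. Ppia was at 106, 178 and 66.0 FPKM in WT and at 156, 56.8 and 165 FPKM in KO. WT libraries 1 and 3 and KO library 2 had the copy high and the parent low, and the other 3 libraries the reverse. Processed pseudogenes held 45.8%, 10.3% and 62.1% of the family counts in WT and 5.57%, 61.2% and 5.87% in KO. The family sum was 772, 785 and 688 CPM in WT and 623, 545 and 651 in KO, with no overlap (log2 fold change -0.28, edgeR, adjusted p = 0.00337), a call that was lost with no filter on low values. Gm10123 alone had a log2 fold change of -1.06 ± 0.79 (edgeR, adjusted p = 0.312), which became -3.06 and past the threshold without KO library 2.

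Gm8186, identical to the small nuclear ribonucleoprotein gene Snrpg over its length, was at 37.6, 5.71 and 11.9 FPKM in WT and at 23.9, 7.44 and 7.48 FPKM in KO. Snrpg was highest where the copy was lowest in WT, at 2.04, 6.01 and 5.30 FPKM in WT and at 0.385, 3.502 and 2.84 FPKM in KO. Their sum fell from 12.7 ± 0.66 to 6.94 ± 0.64 CPM without overlap (log2 fold change -0.85, edgeR, adjusted p = 5.72e-05). Gm8666, a copy of the nucleosome-binding gene Hmgn1, was at 25.4, 2.10 and 5.76 FPKM in WT and at 19.8, 19.4 and 15.7 FPKM in KO, and Gm11663, another copy of Hmgn1, at 9.59, 0.940 and 2.04 FPKM in WT and at 6.73, 8.02 and 5.16 FPKM in KO. In both, WT libraries 2 and 3 were low and the others high. Gm10705, a copy of the ubiquitin-conjugating gene Ube2l3, was at 22.7, 36.9 and 6.02 FPKM in WT and at 5.84, 1.02 and 6.68 FPKM in KO, with overlap (log2 fold change -2.32 ± 0.62, edgeR, adjusted p = 0.0108).

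Near the limit of 5 FPKM, the members with the lowest means were Gm10029 (Rpl35a), Gm6457 (Rsl24d1) and Gm10233 (Timm23), at 5.05, 5.03 and 5.01 FPKM. Gm10029 was at 7.58 ± 0.25 FPKM in WT and 2.52 ± 0.27 FPKM in KO, Gm6457 at 5.92 ± 0.66 and 4.15 ± 0.79 FPKM, and Gm10233 at 5.25 ± 0.82 and 4.78 ± 0.67 FPKM. These KO means were all under 5 FPKM, so the limit was met only through WT. Just outside were Gm13493 (Ppia) at 6.50 ± 0.37 FPKM in WT and 3.37 ± 0.17 FPKM in KO, Gm13192 (Rps28) at 7.75 ± 0.46 and 2.04 ± 0.33 FPKM, and Gm18541 (Arl1) at 4.56 and 5.01 FPKM.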

How the data were processed

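RNA was sequenced from 6 libraries after oligo(dT) selection and dUTP strand marking, per the labels' protocols. The tools listed in the submitters' processing notes are HISAT2 2.0.4, StringTie 1.3.4d and cutadapt 1.9. Their roles, the genome build and the handling of fragments that match several places are not given in the sources used here. The table deposited by the authors gives FPKM and estimated counts (whole numbers) for each gene and library. A ratio of about 4 counts per fragment was inferred from the values and is not stated in the sources used here. Depth was 53188659 to 70059042 estimated counts per library.

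Genotypes were taken from the labels. The genotypes were compared in edgeR 4.0.16 under R 4.3.3 (quasi-likelihood test, TMM scaling) over the 11636 genes whose mean reached 1 FPKM, a filter that all 261 pseudogenes passed by their own rule. An SE is the size of the log2 fold change divided by the root of its F statistic. On simulated counts of these 11636 genes, 85% of 100 genes changed by 1.5-fold and 96% of 100 changed by 2-fold were recovered, with 7 false calls. The changed genes left out those with few counts, and no shared fragments or length and GC trends were simulated. These rates may therefore not hold for single copies. Ratios of copy to parent (log2 CPM, prior count 2) were tested with limma 3.58.1. All tests were two-sided with Benjamini-Hochberg adjustment over all rows of a fit and a threshold of 0.05.

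Pseudogene transcripts of GENCODE M21 (GRCm38), where all 261 IDs and 242 coordinates were found as deposited, were matched to coding transcripts with blastn 2.17.0 (plus strand, each base counted once). Coordinates are as deposited. The floor for a count of 0 is 3 fragments, rests on the inferred ratio of 4 counts per fragment and covers counting error only.

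Named by rule were the 10 highest means, among calls without overlap of FPKM the 8 strongest rises and the 8 strongest falls, the 3 on each side of the limit, their parents, and pseudogenes with a name other than Gm or Rik where their role is described. All others named are examples chosen after their values were seen. Members, roles and lists were chosen with earlier results of these data known. Alternatives were DESeq2 1.42.0, limma on log2(FPKM + 1, 0.5 or 0.1), other scalings and filters, the length and GC offset (loess, span 0.3), a limit of 10 FPKM, a replicate block and each library left out. Tables were made with Python 3.11.15.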

Additional observations from a re-analysis of the deposited data

How the results depend on the processing

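Of the alternatives, the offset for length and GC content changed most: 47 pseudogenes were then higher and 66 lower, and the median log2 fold change was 0.0487. It turned the direction of Gm9794 (0.15), Gm8210 (0.16), Gm13841 (0.17), Gm8226 (0.19), Gm12715 (0.0945), Gm8399 (0.18) and Gm10233 (0.25), and of the families of Cox7a2l (0.0720), Rsl24d1 (0.13), Cop1 (-0.12), Rpl7a (0.0142) and Actg1 (0.0836). With a limit of 10 FPKM, which leaves out 116 of the 261 pseudogenes, 66 were lower and 6 higher, and the median was -0.28. The median was -0.24 in limma on log2(FPKM + 1) and on log2(FPKM + 0.5). DESeq2 called 8 higher and 125 lower, and no filter gave 7 and 98. With counts divided by 4, added after seeing the data, 9 were higher and 124 lower. Among pairs under 95% identity, which are few, the ratio was higher for 1 and lower for 2.

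Leaving out 1 library at a time gave 7 to 11 pseudogenes higher and 104 to 114 lower, medians of -0.35 to -0.30, 12 to 15 families higher and 91 to 100 lower, 7 to 13 ratios higher and 22 to 35 lower, and differences in the share of -1320 to -1156 CPM. It reversed the log2 fold change of Gm8226, which ran from -0.332 to 0.00845 (above 0 without KO library 2). It also reversed the ratios of Gm8226, from -0.365 to 0.719 (below 0 when WT library 1 or KO library 1 or 3 was left out), of Gm9794, from -0.0903 to 0.00387 (above 0 without WT library 3), and of Gm10233, from -0.0597 to 0.199996 (below 0 when WT library 2 or KO library 1 or 2 was left out). The causes were not tested.

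Same-numbered WT and KO libraries correlated at 0.02, 0.19 and -0.04 in their deviations, so the numbers were not taken to pair them, and not every library correlated best with its own number. With the replicate block 9 pseudogenes were higher and 122 lower, 19 families higher and 106 lower, and the ratio was higher for 6 and lower for 14, with the ratio of Gm13394 (0.56) no longer past the threshold. With 3 libraries a genotype, and with no record here of how shared fragments were divided, values of single copies are limited more than family sums.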
